A study of Mus musculus with 8 samples.

Results

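The bile acid and FGF15 signalling genes followed here were 10 mouse genes taken by name (Fgfr4, Klb, Fgf15, Nr1h4, Nr0b2, Slc10a2, Fabp6, Slc51a, Slc51b and Gpbar1), of 21887 protein-coding genes in the RefSeq gene table. They were chosen with results of the same peak lists known, since Fgfr4 had already ranked high among the genes with acetylation in fasted crypts. Everything below is therefore a description without a test, and the Fgfr4 values are those that led to the choice. The locus of a gene was its body plus 50 kb on each side on GRCm38 (mm10), and each peak in it was placed at a gene end (within 1 kb of either end), in the body or in a flank. Each of the 10 genes lay on a different chromosome, and the loci were 101.0 to 179.4 kb long.

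CUT&Tag uses an antibody to bring a transposase to a chromatin mark, so that DNA beside the mark is cut out and sequenced. It was run for 2 acetylation marks of active promoters and enhancers, H3K27ac and H3K9ac, in cells labelled as epithelium from small intestinal crypts of male C57BL/6J mice aged 9 weeks. Mice were fed (Fed) or fasted for 24 h (Fast), and were either without tetracycline, (-Tetra), or given this antibiotic for 21 days, (+Tetra), which made 4 groups for each mark and 8 samples in all. The labels name mouse IgG beside H3K27ac and rabbit IgG beside H3K9ac. The segment of small intestine is not named, and crypts were released with EDTA and brought to single cells with trypsin with no sort described.

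Each sample had 2 peak lists, told apart by a number, 1 or 2, in the name of the deposited list. Nothing in the labels says that these numbers are separate mice, so any spread between lists may be technical. H3K27ac lists held 32392 to 68545 peaks on the main chromosomes and H3K9ac lists 17249 to 99050. Read depth is unknown. In 3 of the 4 H3K9ac Fast lists 17.2% to 31.2% of peaks were exactly 200 bp wide, and in the H3K27ac list Fast 1 (-Tetra) 11.8% were, against at most 1.73% in every other list. H3K27ac peaks stood at a gene end of all 8 epithelial marker genes (such as Epcam, Vil1 and Cdx2) in every list, against 33.6% of all genes. H3K9ac was there in every list at 6 of the 8, against 21.1% of all genes, and in 6 lists at Krt18 and 7 at Krt20.

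Bile acids are made in the liver, stored in the gallbladder, released with a meal, and taken back up in the last stretch of the small intestine. There Slc10a2 carries them into the enterocyte, Fabp6 binds them inside the cell, and the Slc51a-Slc51b pair lets them out toward the blood, while the nuclear receptor FXR (Nr1h4) senses them and switches on Nr0b2 and the hormone gene Fgf15. FGF15 travels to the liver and signals through the receptor FGFR4 with its partner beta-Klotho (Klb) to hold back bile acid synthesis, and Gpbar1 encodes TGR5, a bile acid receptor at the cell surface.

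The promoters on which the results turn are shown as the 250 bases before the RefSeq start (GRCm38.p6), 5′ to 3′ on the strand of the gene. They were picked because Fgfr4 differed by feeding, Slc51b and Slc51a were marked throughout, Slc10a2 had a shifting peak, and Nr0b2 and Fabp6 shared a promoter motif while differing in acetylation. Capitals mark matches to AGGTCA (a core site of nuclear receptors), GTTAAT (one arm of the HNF1 site) or TATAAA (the core promoter element) on either strand. Those on the plus strand are Fgfr4 at chr13:55152568-55152817 and Nr0b2 at chr4:133553126-133553375. Those on the minus strand are Slc51a at chr16:32487880-32488129, Slc51b at chr9:65422774-65423023, Slc10a2 at chr8:5105288-5105537 and Fabp6 at chr11:43601563-43601812.
Fgfr4: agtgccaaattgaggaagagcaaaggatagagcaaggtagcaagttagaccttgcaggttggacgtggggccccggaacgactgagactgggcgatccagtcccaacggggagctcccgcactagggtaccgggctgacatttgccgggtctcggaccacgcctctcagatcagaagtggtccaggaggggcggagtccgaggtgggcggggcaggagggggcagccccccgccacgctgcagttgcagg
Slc51a: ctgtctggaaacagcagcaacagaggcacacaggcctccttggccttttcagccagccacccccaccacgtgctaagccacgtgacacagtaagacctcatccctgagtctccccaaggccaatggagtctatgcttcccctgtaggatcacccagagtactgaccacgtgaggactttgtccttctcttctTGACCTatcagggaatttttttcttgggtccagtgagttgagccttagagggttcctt
Slc51b: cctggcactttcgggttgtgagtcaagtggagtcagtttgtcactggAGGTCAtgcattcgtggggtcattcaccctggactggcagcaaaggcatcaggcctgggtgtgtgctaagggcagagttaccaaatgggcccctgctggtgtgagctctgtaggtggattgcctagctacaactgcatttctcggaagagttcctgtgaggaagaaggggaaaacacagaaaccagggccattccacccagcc
Slc10a2: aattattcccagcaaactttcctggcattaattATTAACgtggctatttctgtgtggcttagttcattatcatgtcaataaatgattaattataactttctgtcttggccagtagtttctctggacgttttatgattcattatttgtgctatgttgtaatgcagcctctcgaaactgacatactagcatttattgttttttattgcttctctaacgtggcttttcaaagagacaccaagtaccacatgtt
Nr0b2: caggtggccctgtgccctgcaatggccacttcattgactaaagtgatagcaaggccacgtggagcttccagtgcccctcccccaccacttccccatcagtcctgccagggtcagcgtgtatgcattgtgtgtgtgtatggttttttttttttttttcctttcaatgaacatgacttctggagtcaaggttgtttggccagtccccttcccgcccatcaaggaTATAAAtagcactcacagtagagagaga
Fabp6: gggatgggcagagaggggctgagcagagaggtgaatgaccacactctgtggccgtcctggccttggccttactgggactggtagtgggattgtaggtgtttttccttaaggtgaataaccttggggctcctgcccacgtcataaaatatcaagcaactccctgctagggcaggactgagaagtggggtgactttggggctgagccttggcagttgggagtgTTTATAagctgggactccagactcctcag

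RefSeq start sites were found for 9 of the 10 genes, and Fgf15 is given by its gene ends only. In the promoters printed, GC content was 64.0% at Fgfr4 with 15 CpG dinucleotides, the highest of the 9 matched promoters, and 34.4% at Slc10a2, the lowest, against a median of 55.2% and 10 CpG over 17492 promoters. AGGTCA was in the promoters of Nr1h4, Slc51a and Slc51b and in 12.6% of all promoters, and TATAAA was in those of Nr0b2 and Fabp6, ending 23 and 24 bases before the start, and in 12.4% of all. The Nr0b2 match reads along the gene and the Fabp6 match on the opposite strand. GTTAAT was in those of Nr1h4 and Slc10a2 and in 5.93% of all, and AGATAA (bound by GATA factors) in that of Nr1h4 and 9.12% of all. The FXR inverted repeat, in which 2 core sites face each other around a single base (searched without the outer base of each), was in 0.0229% of all promoters and in none of the 9, and the direct repeat of the core site around a single base was in 0.0457% and in none of the 9. CAAGGTCA (the site of LRH-1, which holds the core site AGGTCA within it) was in 1.15% of all promoters, CAAAGTCCA (an HNF4A site) in 0.366%, and neither was in any of the 9. Both strands were searched, and the repeats are made of core sites, so these matches are not independent.

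Across the genes, H3K27ac gave 3 kinds of picture. Nr0b2, Slc51a and Slc51b carried it at a gene end in all 8 lists, Fgf15 and Gpbar1 in none, and Fgfr4 in all 4 Fast lists and no Fed list. The 3 genes marked in all 8 lists compare with 33.6% of all genes, and the 2 marked in none with 39.4%. Fgfr4 (4 Fast, 0 Fed) and Klb (2 Fast, 0 Fed) had more Fast than Fed lists, which 13.2% of all genes did. Nr1h4 (3 Fast, 4 Fed) and Fabp6 (0 Fast, 1 Fed) had more Fed lists, which 9.44% did, and the other 6 had as many of each, as 77.3% did; Slc10a2 had 3 of each. The number of the 10 genes marked was 5, 6, 4 and 5 in the Fed lists and 5, 6, 7 and 6 in the Fast lists (mean 5.0 ± 0.816 and 6.0 ± 0.816, SD, n = 4 lists), always in the order 1 (-Tetra), 2 (-Tetra), 1 (+Tetra), 2 (+Tetra), which is kept for all values below. Of all genes, 44.6%, 49.9%, 44.0% and 49.0% were marked in the Fed lists and 49.2%, 50.7%, 50.7% and 42.9% in the Fast lists, so the members were marked about as often as genes at large. The feeding groups overlapped. By tetracycline the means were 5.5 in both states, with more (+Tetra) lists at Nr1h4 alone (8.19% of all genes) and more (-Tetra) lists at Fabp6 alone (13.9%).

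H3K9ac was more scattered at the same genes. None of the 10 had it at a gene end in all 8 lists, where 21.1% of all genes did, and Slc10a2 and Gpbar1 had it in none, where 25.2% of genes did. Slc51a and Slc51b each had it in 7 lists, Nr0b2 in 6, Fgfr4 in 5, Klb, Nr1h4 and Fabp6 in 3 and Fgf15 in 2. Fgfr4, Klb, Nr1h4, Fabp6 and Slc51a had more Fast lists (background 23.8%) and Slc51b more Fed lists (background 20.7%), and the other 4 had as many of each (55.5%). The number of genes marked was 2, 6, 2 and 5 in the Fed lists and 4, 5, 6 and 6 in the Fast lists (mean 3.75 ± 2.06 and 5.25 ± 0.957, SD, n = 4 lists). Of all genes, 41.1%, 51.7%, 43.1% and 49.5% were marked in the Fed lists and 50.3%, 43.3%, 53.2% and 43.1% in the Fast lists. Both low counts came from the Fed lists numbered 1, which were the shortest H3K9ac lists, and the groups overlapped. By tetracycline the means were 4.25 without and 4.75 with it, with more (+Tetra) lists at Fgf15, Klb, Slc51a and Slc51b (22.2% of all genes) and more (-Tetra) lists at Fgfr4, Nr1h4 and Fabp6 (20.8%).

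**Figure D1:**
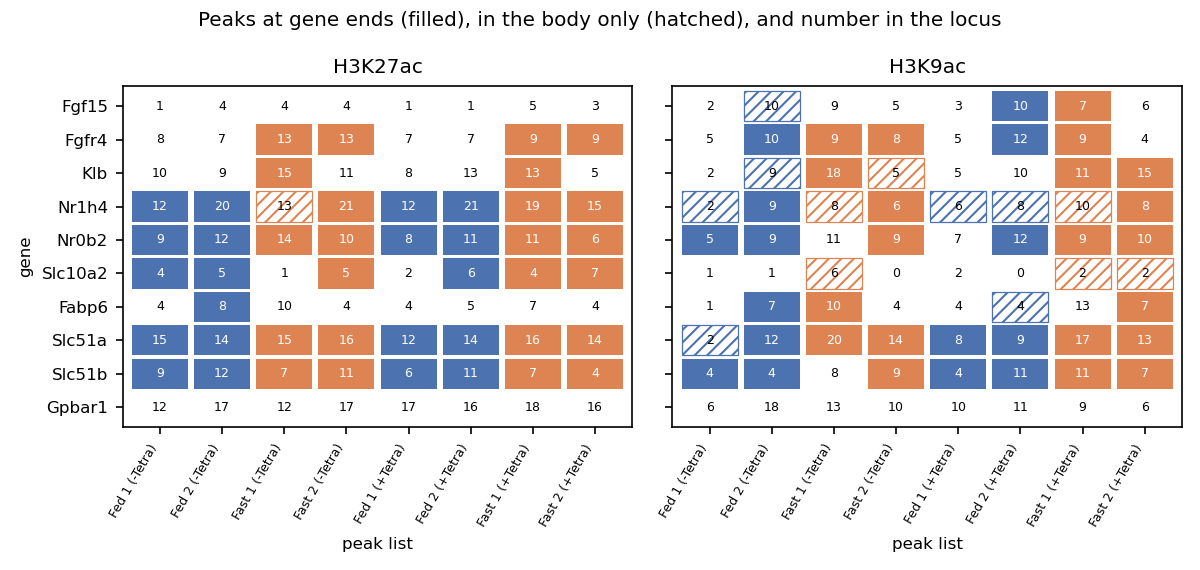
Each row is a gene and each column a peak list, for H3K27ac (left) and H3K9ac (right); filled squares mark a peak within 1 kb of a gene end, hatched squares a peak in the body only, blue is Fed, orange is Fast, and the number in a square counts the peaks in the whole locus. In H3K27ac the Fgfr4 row is filled in the 4 Fast lists alone, while Nr0b2, Slc51a and Slc51b are filled in all 8.

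Fgfr4 encodes the receptor for FGF15 and lies at chr13:55152818-55168759 on the plus strand. Its H3K27ac peak at the start filled chr13:55152356-55153960, from its promoter (printed above) into the first part of the gene. Within 2.5 kb of the start, H3K27ac covered 78, 224, 261 and 0 bp in the Fed lists and 1641, 1780, 1402 and 1416 bp in the Fast lists. The 4 Fast lists were all above the 4 Fed lists (mean 1560 ± 183 and 141 ± 123 bp, SD, n = 4 lists), and the few bases in Fed lists were the edge of a separate peak upstream. In a mixture of cells, fewer cells that carry the mark and less of it per cell cannot be told apart. Of all genes with a tabulated start, 2.5% had every Fast list above every Fed list in this measure, and 0.0572% had a start peak in all 4 Fast lists and no Fed list. At gene ends the pattern of all 4 Fast lists and no Fed list was seen in 0.0959% of genes.

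The Fgfr4 start peak was of middling rank by the authors' score, at percentiles 72.9, 71.0, 65.0 and 21.6 of the 4 Fast lists. In Fast 1 (-Tetra) it was called as 2 pieces. It was in 3 Fast lists and no Fed list when only the top 50% of each list by score was kept, and in 4 and none when all lists were cut to the same number of top-scoring peaks or to peaks at least 500 bp wide. Fast lists without and with tetracycline both had it.

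H3K9ac at the Fgfr4 start did not follow feeding in the same way. It covered 0, 1116, 0 and 1325 bp within 2.5 kb in the Fed lists and 1394, 404, 717 and 0 bp in the Fast lists. Both Fed lists numbered 2 and 3 of the 4 Fast lists had a peak, so the groups overlapped widely (mean 610 ± 710 and 629 ± 589 bp, SD, n = 4 lists). In none of the 9 genes with a start did every Fast list lie above every Fed list in this H3K9ac measure, which 0.88% of all genes with a start did.

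Other acetylation around Fgfr4 included regions common to every list. Of 16 H3K27ac regions (overlapping peaks of the 8 lists merged), 5 were in all 8 lists. One of them, chr13:55148487-55150639, was centred 3.26 kb upstream of the start and measured 569, 1369, 748 and 553 bp in the Fed lists and 2123, 1550, 699 and 582 bp in the Fast lists. The others were downstream, with centres 30.1, 33.9, 37.3 and 59.0 kb from the start, the last at the end of the neighbour Nsd1. The one at 37.3 kb, chr13:55188759-55191388, had the highest median score percentile at the locus (93.8) and lay in no gene. A weaker region 49.4 kb downstream, chr13:55201603-55202917, was in all 4 Fast lists and 1 Fed list, a split that 1.06% of H3K27ac regions had. It was in 2 Fast and 0 Fed lists in the top 50% by score and in 3 and 1 with equal peak numbers. The opposite split was seen for H3K9ac at the end of Zfp346, chr13:55104874-55105878, in 1 Fast and 4 Fed lists (0.104% of H3K9ac regions), which became 1 and 3 in the top 50% by score and 0 and 3 with equal peak numbers.

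Counting the whole Fgfr4 locus, H3K27ac peaks numbered 8, 7, 7 and 7 in the Fed lists and 13, 13, 9 and 9 in the Fast lists. Fgfr4 was the only one of the 10 genes whose Fast lists were all above its Fed lists, which held for 1.84% of all loci. H3K9ac peaks there numbered 5, 10, 5 and 12 against 9, 8, 9 and 4, with full overlap.

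**Figure D2:**
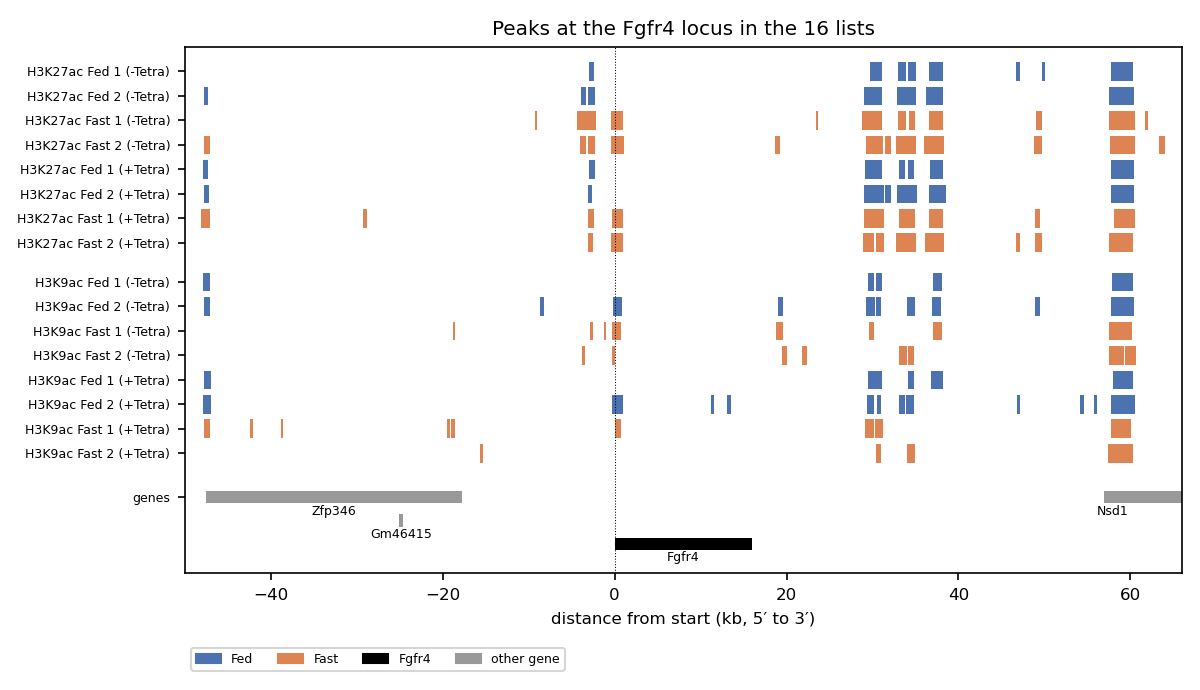
Peaks at the Fgfr4 locus in the 16 lists, by distance from the Fgfr4 start in kb; blue bars are Fed lists, orange bars Fast lists, black is Fgfr4 and grey are other genes. H3K27ac at the start appears in the 4 Fast lists only, beside regions at 30.1, 33.9, 37.3 and 59.0 kb that are in all 8 lists.

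Immune marker genes were also marked more often, on average, in the Fast lists. Of 5 immune marker genes, 2 to 4 had H3K27ac at a gene end in the Fast lists and 1 to 3 in the Fed lists (means 3.0 and 1.75), and Ptprc, the pan-leukocyte gene, had it in 4 Fast and 0 Fed lists, the same split as Fgfr4. Cd8a had it in 4 and 2, Cd68 in 2 and 1, and Cd3e in 2 and 4. Of all genes, 13.2% had more Fast lists, 9.44% more Fed lists and 0.0959% the Ptprc split. In a single list, 42.9% to 50.7% of all genes had H3K27ac at a gene end. H3K9ac was at no Ptprc gene end in any list, as for 25.2% of all genes. It was in 1 Fast and 1 Fed list at Cd8a and at Cd3e, and in 1 and 0 at Cd68. The part of the immune marker genes in the Fgfr4 result was not tested. Of 5 stromal and vascular markers, 0 or 1 had H3K27ac in any list, with Col1a1, Pdgfra and Pecam1 in none. Of 5 hepatocyte markers, 2 had it in each Fast list and 1 or 2 in the Fed lists, with Alb, Serpina1a and Cyp7a1 in none. Of 5 enteroendocrine markers 0 to 2 had it in the Fast lists and 1 in each Fed list.

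The genes whose H3K27ac at a gene end varied most like Fgfr4 over the 8 lists, by the Pearson correlation of score percentiles with 0 for no peak, were Hcar2 (r = 0.995), Glmp (0.987) and Adra2a (0.976). Hcar2, a receptor for the ketone body beta-hydroxybutyrate and for niacin, and Glmp, a lysosomal membrane protein, had 4 Fast lists and 0 Fed lists. Adra2a, an adrenergic receptor, had 4 and 1. Lists differ in length and the 2 of a sample may share a source, and these genes were picked for likeness out of all genes.

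Klb encodes beta-Klotho, the co-receptor that lets FGFR4 bind FGF15, and lies at chr5:65348411-65386957 on the plus strand. Its start had acetylation in some Fast lists and in no Fed list, for both marks. H3K27ac covered 356, 0, 732 and 0 bp within 2.5 kb of the start in the Fast lists. Only the Fast lists numbered 1 had a peak, at score percentiles 1.64 and 49.7. They were the longest H3K27ac lists, with 68545 and 56717 peaks, and the part of list length in these peaks was not tested. H3K9ac covered 773, 0, 445 and 871 bp in the Fast lists. Neither pattern held under every setting. The Fast minus Fed difference in H3K27ac lists fell from 2 to 0 in the top 50% by score. It also fell to 0 without the lists numbered 1. The difference in H3K9ac lists fell from 3 to 0 with equal peak numbers. It fell to 1 with peaks at least 500 bp wide or without the lists numbered 1. Leaving out a list number also removes lists from the count: the Fgfr4 difference in H3K27ac went from 4 to 2 without either number. The 3 H3K9ac lists with a Klb start peak were the same 3 in which 17.2% to 31.2% of all peaks were exactly 200 bp wide, and the part of that in the Klb peaks was not tested.

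Over the whole Klb locus, H3K27ac peaks numbered 10, 9, 8 and 13 in the Fed lists and 15, 11, 13 and 5 in the Fast lists, and H3K9ac peaks 2, 9, 5 and 10 against 18, 5, 11 and 15. The groups overlapped in both marks. All 5 of its H3K27ac regions in all 8 lists were in the flanks, and the highest-ranked was at the end of Ugdh, chr5:65434597-65436668, with a median score percentile of 86.6. Inside Ugdh, chr5:65432587-65433706 had H3K27ac in 1 Fast and 4 Fed lists (0.329% of regions had such a split), and in 0 and 2 in the top 50% by score. Inside Lias, chr5:65401253-65402059 had H3K9ac in 4 Fast and 1 Fed lists (0.0885%), but in 1 Fast and 0 Fed lists when the lists were cut by score rank, by number or by width.

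Fgf15, the hormone gene itself, lies at chr7:144896532-144900953. H3K27ac was absent from its ends and body in all 8 lists, and H3K9ac was at a gene end in 1 Fed and 1 Fast list, both (+Tetra). Its locus had few H3K27ac peaks, 1, 4, 1 and 1 in the Fed lists and 4, 4, 5 and 3 in the Fast lists. The groups overlapped, since Fed 2 (-Tetra) had 4 peaks and Fast 2 (+Tetra) had 3. Per 100 kb this was 2.75 H3K27ac peaks, at percentile 47.9 of all genes. The most frequent H3K27ac region, chr7:144914373-144915687 in 3 Fast and 4 Fed lists, lay at an end of the neighbour LTO1. H3K9ac there, chr7:144914584-144916581, was in 1 Fast and 4 Fed lists, a split of 0.104% of H3K9ac regions, and in 1 and 3 in the top 50% by score or with equal peak numbers. H3K9ac peaks in the locus numbered 2, 10, 3 and 10 in the Fed lists and 9, 5, 7 and 6 in the Fast lists.

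Nr1h4 encodes FXR, the nuclear receptor for bile acids, and lies at chr10:89454234-89533645 on the minus strand. Its tabulated start, 89506658, is inside the gene, and acetylation was at that inner start in every list of both marks. Of all tabulated starts, 33.4% had H3K27ac in all 8 lists and 20.5% had H3K9ac. H3K27ac covered 1811, 2688, 1747 and 3018 bp within 2.5 kb in the Fed lists and 2400, 2932, 2350 and 3456 bp in the Fast lists. The 2 groups overlapped, and in both the lists numbered 2 were higher than those numbered 1. H3K9ac covered 1040, 1801, 1401 and 1635 bp in the Fed lists and 1418, 1936, 1170 and 781 bp in the Fast lists.

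The body of Nr1h4 held the only body regions of the 10 genes with H3K27ac in all 8 lists. Of 8 H3K27ac regions in all 8 lists at its locus, 5 were in the body, centred 16.1 kb upstream and 0.92, 19.5, 22.2 and 47.4 kb downstream of the inner start. The strongest, chr10:89504186-89507299, had a median score percentile of 93.0. Locus peaks of H3K27ac numbered 12, 20, 12 and 21 in the Fed lists and 13, 21, 19 and 15 in the Fast lists, or 9.27 per 100 kb, at percentile 88.9 of all genes. At the outer gene ends H3K27ac was missing only in Fast 1 (-Tetra).

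Nr0b2 encodes SHP, a repressor that FXR switches on, and lies at chr4:133553376-133556686 on the plus strand. Its promoter, with TATAAA in capitals above, carried H3K27ac in every list. Coverage within 2.5 kb of the start was 1772, 2363, 1777 and 2700 bp in the Fed lists and 1589, 2865, 1947 and 1905 bp in the Fast lists. The groups overlapped with means of 2153 and 2076 bp. H3K9ac at this start was sparser, 708, 0, 0 and 1626 bp in the Fed lists and 0, 652, 0 and 0 bp in the Fast lists. The locus is crowded, with 7 other genes, and 63.8% of flank H3K27ac peaks lay at the ends of those genes. The highest-ranked region there, chr4:133597760-133602681, belonged to the end of Sfn and not to Nr0b2.

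**Figure D3:**
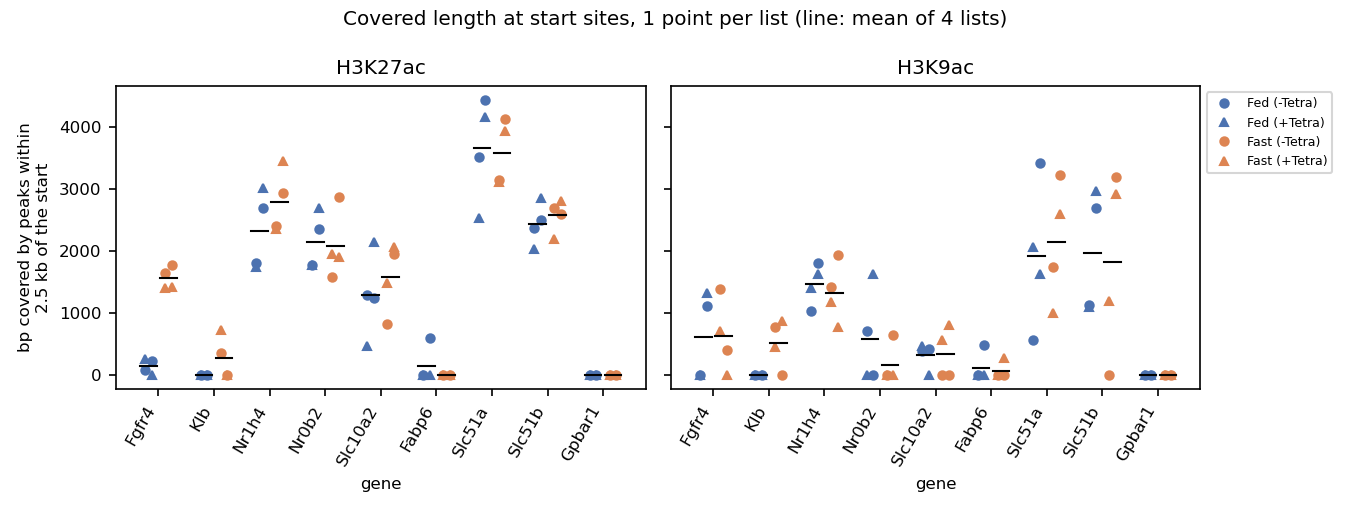
Each point is a list, with bp covered by peaks within 2.5 kb of the start on the vertical axis, for 9 genes in H3K27ac (left) and H3K9ac (right); blue is Fed, orange is Fast, circles are (-Tetra), triangles (+Tetra), and lines are means of 4 lists. In H3K27ac the Fgfr4 Fast lists (1402 to 1780 bp) lie apart from its Fed lists (0 to 261 bp), which none of the other 8 genes shows in either mark.

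Slc10a2, the transporter that takes bile acids up from the gut lumen, lies at chr8:5083219-5105287 on the minus strand with no other protein-coding gene within 50 kb. Its promoter was the poorest in GC of the 9. The H3K27ac region merged over the lists spanned the start and was centred 0.73 kb upstream of it. The region chr8:5104668-5107366 had H3K27ac in all 8 lists, with 1294, 1243, 469 and 2149 bp covered within 2.5 kb in the Fed lists and 817, 1945, 1484 and 2061 bp in the Fast lists. It reached to within 1 kb of the start in 6 lists. The 2 lists in which it did not, Fast 1 (-Tetra) and Fed 1 (+Tetra), were from both feeding states. H3K9ac was at no Slc10a2 gene end, and its most frequent region, centred 1.64 kb upstream of the start, was in 2 Fast and 3 Fed lists. Locus peaks numbered 4, 5, 2 and 6 in the Fed lists and 1, 5, 4 and 7 in the Fast lists for H3K27ac, and 0 to 6 for H3K9ac, the lowest H3K9ac total of the 10 loci at 1.43 per 100 kb.

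Fabp6 encodes the bile acid binding protein of ileal enterocytes, and lies at chr11:43596040-43601562 on the minus strand. Where Nr0b2 had H3K27ac at its start in all 8 lists, Fabp6 had H3K27ac in 1 list only, Fed 2 (-Tetra), over 597 bp. H3K9ac covered its start in Fed 2 (-Tetra) over 482 bp and in Fast 2 (+Tetra) over 273 bp. The strongest region at the locus, chr11:43547904-43551011 inside Ccnjl, had H3K27ac in all 8 lists at a median score percentile of 97.6. The 3 regions in all 8 lists were all in the flank on that side, and the 4 to 10 peaks per list were otherwise scattered.

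Fabp6, Slc10a2 and Fgf15, with Cubn, were also the 4 genes set down as markers of the ileum, and 0 to 3 of them had H3K27ac at a gene end in a list (mean 1.5 in both feeding states). Of 4 markers of the proximal intestine (Gata4, Fabp1, Cybrd1 and Slc40a1), 2 or 3 had it in the Fast lists and 3 in each Fed list. Gata4 and Fabp1 had it in all 8 lists, as 33.6% of all genes did, and Cybrd1 in none, as 39.4% did. In a single list, 42.9% to 50.7% of all genes had H3K27ac at a gene end. No segment of the intestine is read from these few genes.

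**Figure D4:**
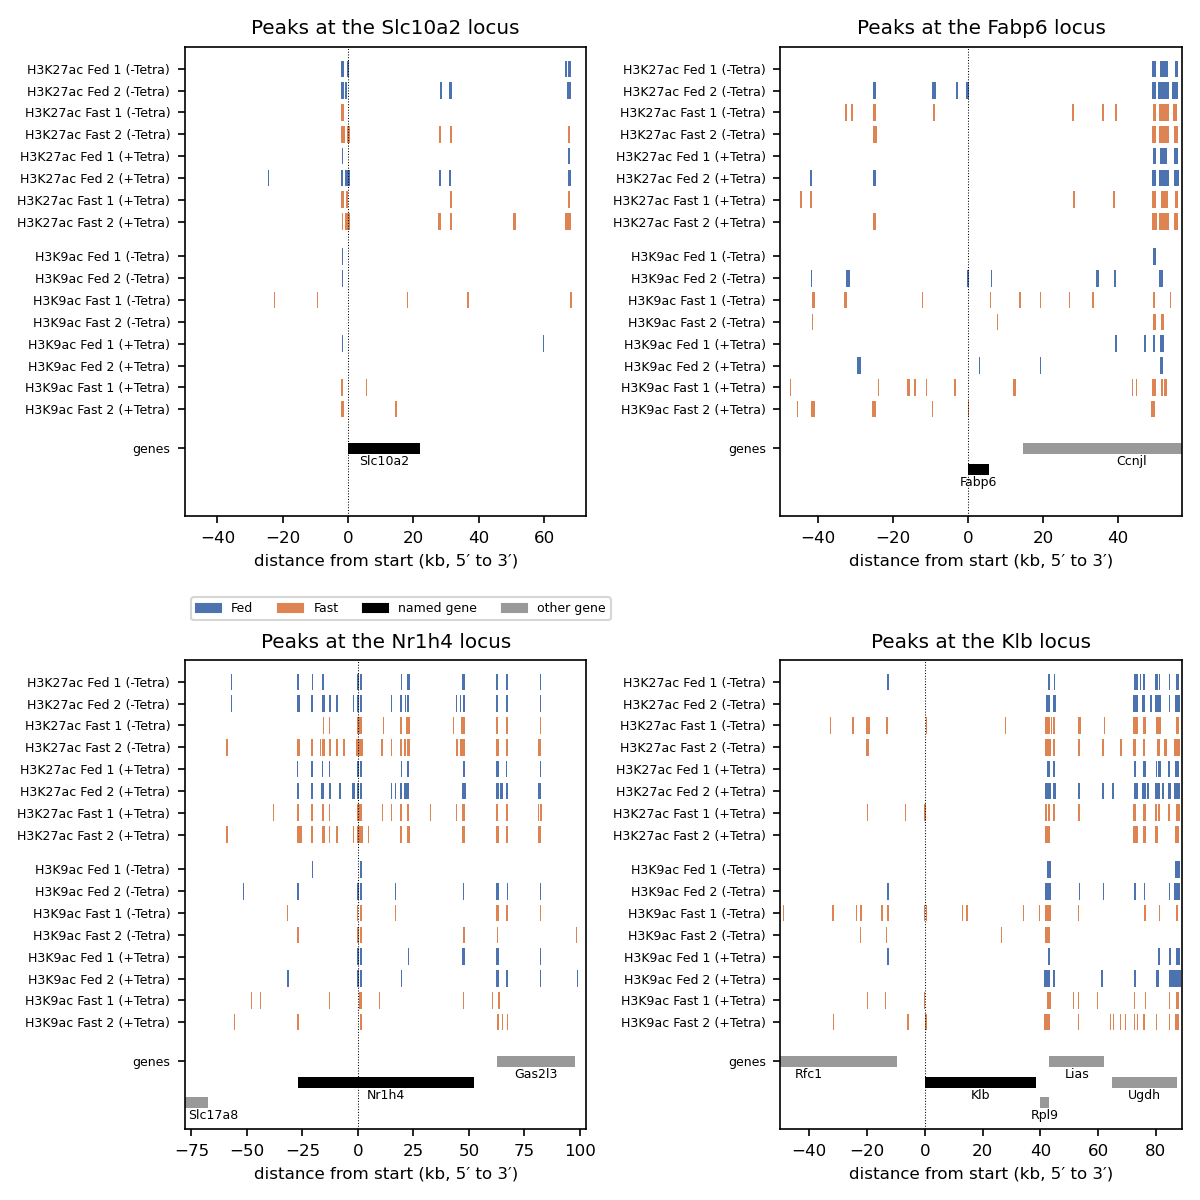
Peaks at the Slc10a2, Fabp6, Nr1h4 and Klb loci in the 16 lists, by distance from the tabulated start in kb; blue bars are Fed lists, orange bars Fast lists, black is the named gene and grey are other genes. Nr1h4 has H3K27ac at its inner start and across its body in all 8 lists, whereas the H3K27ac regions in all 8 lists at the Klb and Fabp6 loci are in the flanks.

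Slc51a and Slc51b encode the 2 subunits of the transporter through which bile acids leave the cell, and the H3K27ac regions over their starts ranked highest by score among the 9 genes with a start. Slc51a lies at chr16:32475578-32487879 and Slc51b at chr9:65412753-65422773, both on the minus strand. H3K27ac at the Slc51a start covered 3524, 4440, 2540 and 4154 bp within 2.5 kb in the Fed lists and 3141, 4125, 3115 and 3932 bp in the Fast lists, of 5001 bp possible. At Slc51b it covered 2376, 2506, 2036 and 2857 bp in the Fed lists and 2691, 2597, 2198 and 2809 bp in the Fast lists. Neither gene separated Fed from Fast, and the regions over the starts, chr16:32483868-32489818 and chr9:65422313-65425409, had median score percentiles of 97.9 and 98.1.

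H3K9ac at these starts varied widely between lists. At Slc51a it covered 564, 3423, 2067 and 1622 bp in the Fed lists and 1748, 3224, 1007 and 2592 bp in the Fast lists. At Slc51b it covered 1127, 2696, 1101 and 2963 bp in the Fed lists and 0, 3198, 1196 and 2918 bp in the Fast lists, and every list numbered 2 was above every list numbered 1. Fast 1 (-Tetra) was the single list without H3K9ac at the Slc51b start.

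The Slc51a locus had 12.9 H3K27ac peaks per 100 kb, at percentile 97.0 of all genes. H3K27ac peaks numbered 15, 14, 12 and 14 in the Fed lists and 15, 16, 16 and 14 in the Fast lists. H3K9ac peaks numbered 2, 12, 8 and 9 in the Fed lists and 20, 14, 17 and 13 in the Fast lists, and here alone among the 10 loci every Fast list was above every Fed list in H3K9ac, which held for 3.05% of all loci. Of these 4 Fast lists, 3 were those with many peaks exactly 200 bp wide, whose part in the count was not tested. The Slc51b locus had 9, 12, 6 and 11 H3K27ac peaks in the Fed lists and 7, 11, 7 and 4 in the Fast lists, and 4, 4, 4 and 11 against 8, 9, 11 and 7 H3K9ac peaks.

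At Slc51a an upstream region differed by feeding. At chr16:32523402-32524665, 36.2 kb upstream of the start and in no gene, H3K9ac was in all 4 Fast lists (728, 591, 592 and 981 bp) and no Fed list, a split that 0.0189% of H3K9ac regions had. The width in Fast 1 (-Tetra) is the sum of 2 pieces, each under 500 bp. It was in 3 Fast lists and no Fed list in the top 50% by score or among peaks at least 500 bp wide, and in 2 and none with equal numbers of peaks. H3K27ac at the same place was in 4 Fast and 3 Fed lists, so that mark did not divide the groups there. A second upstream region, chr16:32508859-32510441, had H3K27ac in both Fast (-Tetra) lists and in no other list, as 1.01% of H3K27ac regions did, and was singled out after its values were seen.

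**Figure D5:**
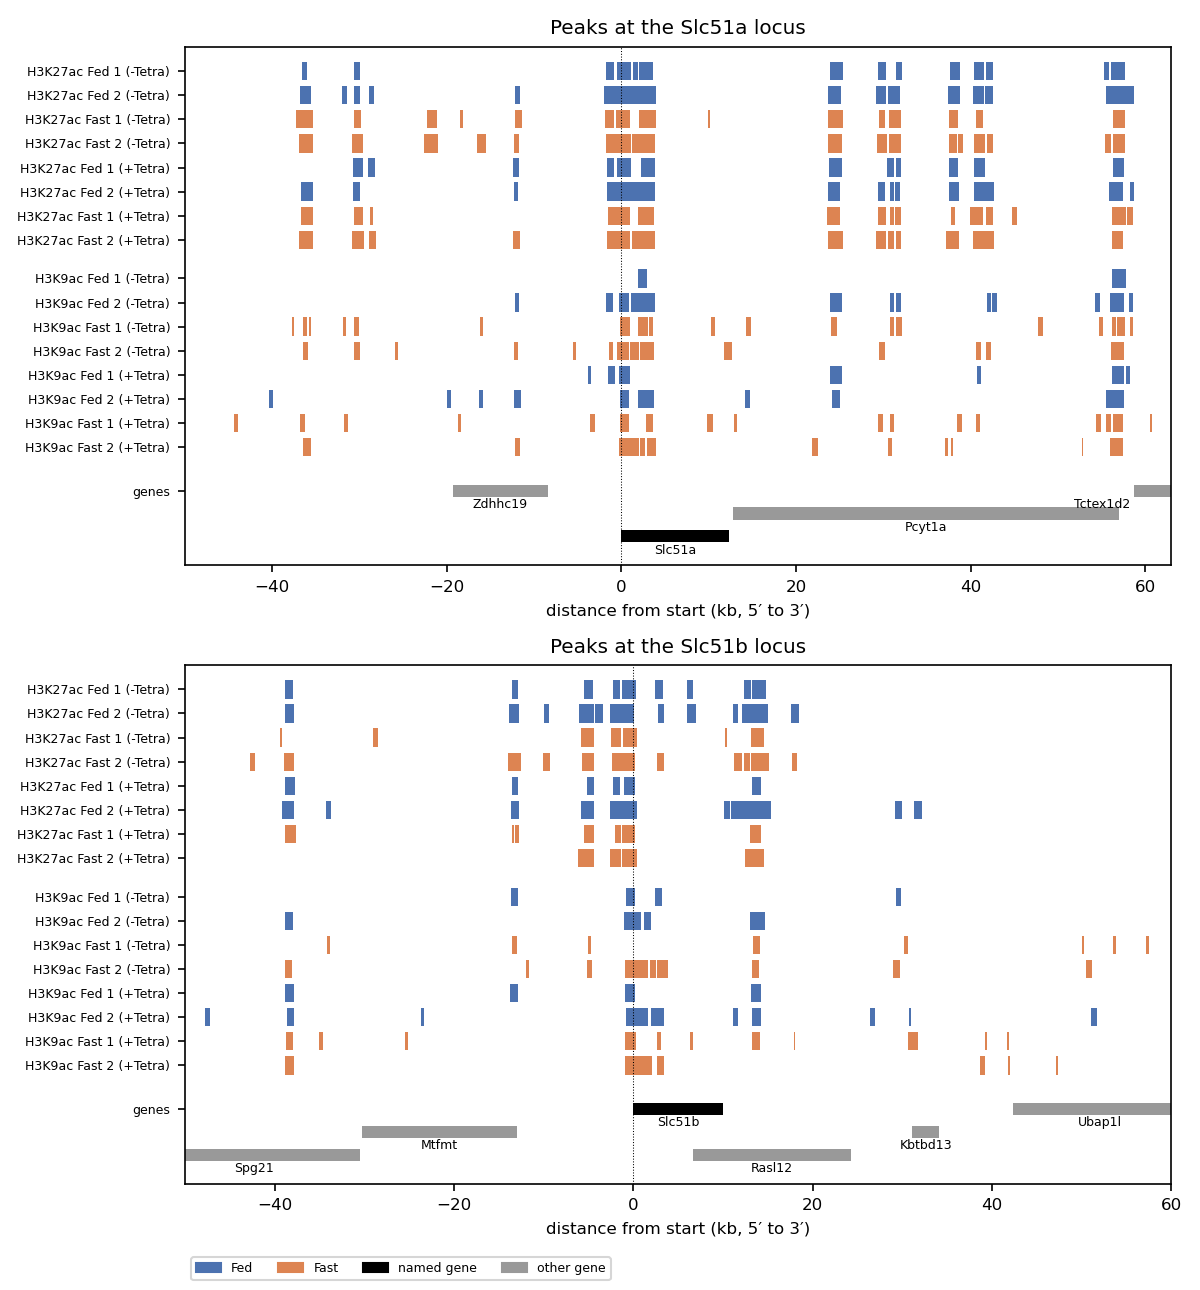
Peaks at the Slc51a (top) and Slc51b (bottom) loci in the 16 lists, by distance from each start in kb; blue bars are Fed lists, orange bars Fast lists, black is the named gene and grey are other genes. Both starts carry H3K27ac in all 8 lists, and at Slc51a the H3K9ac peak 36.2 kb upstream is in the 4 Fast lists only.

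Gpbar1, a gene of 990 bp at chr1:74278600-74279589 on the plus strand, had no acetylation at all within 2.5 kb of its start in any of the 16 lists. Its promoter held 1 CpG. The neighbourhood was the richest of the 10 in H3K27ac, with 15.5 H3K27ac peaks per 100 kb at percentile 99.2 of all genes, and 12, 17, 17 and 16 of them in the Fed lists and 12, 17, 18 and 16 in the Fast lists. The highest-ranked, chr1:74293920-74304835, lay over Tmbim1 and Pnkd at a median score percentile of 99.2. All 9 H3K27ac regions in all 8 lists at the Gpbar1 locus were in the flanks.

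Adding the 10 loci together, H3K27ac peaks averaged 93.5 ± 15.3 in the Fed lists and 102.0 ± 13.1 in the Fast lists (SD, n = 4 lists), a log2 ratio of 0.13, where all peaks in the lists gave 0.40. H3K9ac peaks averaged 65.0 ± 28.3 and 89.5 ± 19.1, a log2 ratio of 0.46, where all peaks gave 0.95. Both differences were within the spread between lists and smaller than the difference in list length. Their sign differed by list number, as it did for all peaks. The lists numbered 1 gave 0.40 for H3K27ac and 1.32 for H3K9ac, where all peaks gave 0.87 and 2.23. Those numbered 2 gave -0.13 and -0.25, where all peaks gave -0.056 and -0.245. The part of list length in these ratios was not tested. With tetracycline over without, the log2 ratios were -0.13 for H3K27ac (all peaks -0.26) and 0.075 for H3K9ac (all peaks 0.17).

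The regions of the 10 loci, like all regions, were more often shared by all lists in H3K27ac than in H3K9ac. The loci surround genes, whereas all regions also include those far from any gene. Of 170 H3K27ac regions, 46 (27.1%) were in all 8 lists, against 14.6% of all H3K27ac regions, and 64 (37.6%) were in 1 list, against 53.1%. Of 269 H3K9ac regions, 8 (2.97%) were in all 8, against 1.52%, and 168 (62.5%) were in 1, against 84.4%. Of the 46 constant H3K27ac regions, 36 were in flanks and 13 of those at the end of another gene. A median of 5 H3K9ac lists had a peak over these 46 regions, 8 of them had one in every list and 1 in none.

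The other genes of the pathway are given beside the 42.9% to 50.7% of all genes with H3K27ac at a gene end in a list. Of 10 FGF receptor and adaptor genes, 7 had H3K27ac at a gene end in each Fed list and 6 to 8 in the Fast lists, and Fgfr3, Fgfrl1, Grb2, Ptpn11 and Sos1 had it in all 8. Of 14 nuclear receptors and regulators, such as Rxra, the partner of FXR, and Hnf4a, 13 had it in each Fed list and 12 or 13 in the Fast lists. Of 10 other genes of transport and detoxification in the gut the means were 6.25 in Fed and 6.0 in Fast lists, and of 12 genes of bile acid synthesis, conjugation and liver transport 2.75 and 3.25. Cyp7a1, the rate-limiting enzyme of the classic synthesis route, had it in none. In a single list, 41.1% to 53.2% of all genes had H3K9ac at a gene end. The H3K9ac means for these 4 gene groups, Fed then Fast, were 7.0 and 6.5 for the first, 4.75 and 5.0 for the third and 2.5 and 3.5 for the last. The second ranged from 11 to 14 in Fed and 9 to 14 in Fast lists. No gene of the 4 groups had the Fgfr4 split in H3K27ac, but with 0.0959% of all genes having it, a list of this size would seldom hold one, and nothing is read from that count.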

How the data were processed

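CUT&Tag peak lists of 8 samples (2 marks, 4 groups, 2 lists each) were used. The submitters' processing notes name FastQC, Bowtie, SAMtools and the build mm10, without roles or versions. Each deposited list gives peak positions and the authors' score, at least 50 and of no stated unit, which served only for ranks and filters inside 1 list. Peak names begin with MACS; its settings are not given in the sources used here. The lists are called downsampled, and no read totals are given.

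Peaks were joined to 21887 protein-coding RefSeq genes (GRCm38) by any overlap of at least 1 bp with Python 3.11.15, numpy 2.4.6 and pandas 2.3.3, and drawn with matplotlib 3.10.9. The overlap counts were tested on simulated data. Overlapping peaks of a mark's 8 lists were merged into regions. The members and gene lists were chosen with earlier results of these data known, so no test was run. All members were named; regions were named when in all 4 lists of one feeding state and at most 1 of the other, or when highest in median score percentile at a locus. For genes of like pattern, the 3 highest correlations were kept. Alternatives used the top 50% by score, equal peak numbers, peaks of at least 500 bp, bridged gaps of 500 bp, windows of 2.5 kb and flanks of 20 and 100 kb. Others counted only peaks with their middle inside the window, or left out each list number. The tabulated start in place of both gene ends, and the named regions under other list forms, were added after seeing the data. The values of 1 immune marker are not reported here.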

Additional observations from a re-analysis of the deposited data

How the results depend on the processing

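Of 42 values over all 10 genes recomputed with both list numbers kept, 35 moved by less than the spread between lists without changing sign. Another 2 moved by more without changing sign, and 5 changed sign, whether or not they moved by more than the spread. With each list cut to the length of the shortest by score, the Fast minus Fed difference in genes marked at a gene end was 0.25 in place of 1.0 (H3K27ac) and -0.25 in place of 1.5 (H3K9ac). Under the same setting the log2 ratio of locus peaks, Fast over Fed, was -0.091 in place of 0.13 (H3K27ac) and -0.38 in place of 0.46 (H3K9ac), and the H3K27ac ratio of +Tetra over -Tetra was 0.072 in place of -0.13. With peaks at least 500 bp wide the H3K9ac ratio, Fast over Fed, was -0.036. The H3K9ac difference in genes marked at a gene end was then 0 in place of 1.5, which counts among the 35 since the spread was 1.80. With a gene-end window of 2.5 kb the H3K27ac difference was 0.25. The wider window takes in the region upstream of Fgfr4 that is in all 8 lists, which brings the Fgfr4 difference in H3K27ac from 4 lists to 1. The cause of the other changes was not tested.

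Leaving out either list number gave 0.5 to 1.5 genes for H3K27ac and 0 to 3.0 for H3K9ac, log2 ratios Fast over Fed of -0.13 to 0.40 and -0.25 to 1.32, and ratios by tetracycline of -0.23 to -0.015 and 0.053 to 0.098. For single genes, 104 of 120 values kept within the spread, the Klb difference shrank or was lost under the settings named in the report; Fabp6 in H3K9ac went from 1 to -1.0 with equal peak numbers, and Fgfr4 in H3K9ac from 1 to -1.0 without the lists numbered 1. No paired analysis was possible because the results come from no fitted test to which a replicate block could be added; the values within each list number are the ends of the ranges just given. Depth is unknown, so an absent peak may be one that was not called.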
